A study of Mus musculus with 8 samples.

Results

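Zscan4c, Zscan4d, Zscan4f, Tcstv1, Tcstv3 and Zfp352 are transcripts of the 2-cell mouse embryo that also mark the 2-cell-like state of embryonic stem cells (ESC). They were taken by gene name from the deposited RNA-seq table, and all 6 were found among its 32567 genes. The study compared wild-type cells with cells homozygous for the Hdh ex4/5 allele, an inactivating mutation of Htt, the mouse gene for huntingtin. Each genotype was profiled as undifferentiated ESC and as cells differentiated through embryoid bodies with retinoic acid (RA-DIFF), which the labels call differentiated EB. The 4 groups were therefore wild-type ESC, Htt-null ESC, RA-DIFF labelled wild type and RA-DIFF labelled Htt-null, with 1 RNA-seq library each. Per the study's methods the cells were ESC lines described before, taken off feeder cells for several passages before differentiation. With 1 library per genotype at each stage, a difference between genotypes cannot be told apart from a difference between lines or cultures.

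In a culture of mouse ESC, a small and changing fraction of cells passes through a state that resembles the 2-cell embryo, in which the zygotic genome is first transcribed. Zscan4 genes, which encode proteins with a SCAN domain and zinc fingers and are known for a role in telomere maintenance, are the classic markers of that state. Tcstv genes encode small proteins of the 2-cell embryo, and Zfp352 encodes a zinc finger protein made around the 2-cell stage. The transcription factor Dux is known to bind and activate many genes of this program, while chromatin repressors such as Trim28, Setdb1, Kdm1a and the Chaf1 histone chaperone hold it down. Since only a few cells are in the state at a time, in these bulk samples fewer cells of a type and less RNA per cell cannot be told apart.

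The Zscan4 members lie in 1 cluster on chromosome 7 and are near copies of each other. In the GRCm38 annotation each has 4 exons in its longest transcript and an open reading frame of 1518 bases (506 codons, without the stop codon). Over the reading frame Zscan4c and Zscan4f were 99.6% identical, and Zscan4d was 97.7% identical to either. The stretch below, coding bases 1032 to 1091, is shown because it holds 6 of the 38 coding positions at which the 3 genes differ, and these positions are what allows a read to be assigned to 1 of them. Capitals mark the differing bases.
Zscan4c: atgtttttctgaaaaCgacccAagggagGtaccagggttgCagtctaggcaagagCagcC
Zscan4d: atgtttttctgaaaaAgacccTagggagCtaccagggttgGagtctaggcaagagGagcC
Zscan4f: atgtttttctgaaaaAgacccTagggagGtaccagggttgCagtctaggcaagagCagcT

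The similarity extends upstream of the genes. The 140 bases shown next were read from the RefSeq promoter table (build GRCm38.p6) for the 3 members and for Zscan4b, a further gene of the cluster. They lie at chr7:11005561-11005700 on the plus strand for Zscan4c, chr7:11166204-11166343 on the minus strand for Zscan4d, chr7:11397754-11397893 on the plus strand for Zscan4f and chr7:10905072-10905211 on the minus strand for Zscan4b. Capitals mark TATAAA, the core of a TATA box, a promoter element that positions the start of transcription.
Zscan4c: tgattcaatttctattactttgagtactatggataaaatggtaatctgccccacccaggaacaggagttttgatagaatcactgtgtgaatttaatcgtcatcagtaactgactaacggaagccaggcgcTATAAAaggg
Zscan4d: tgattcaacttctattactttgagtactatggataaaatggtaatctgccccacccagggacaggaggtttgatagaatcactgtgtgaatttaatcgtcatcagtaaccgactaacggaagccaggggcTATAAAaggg
Zscan4f: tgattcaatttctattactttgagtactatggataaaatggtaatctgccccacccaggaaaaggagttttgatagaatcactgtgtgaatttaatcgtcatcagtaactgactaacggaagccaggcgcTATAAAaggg
Zscan4b: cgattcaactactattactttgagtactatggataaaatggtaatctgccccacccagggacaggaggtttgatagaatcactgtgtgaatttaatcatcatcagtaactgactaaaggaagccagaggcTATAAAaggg

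These windows were 99.3% identical between Zscan4c and Zscan4f, 96.4% between Zscan4c and Zscan4d and 95.7% between Zscan4d and Zscan4f. In all 4 genes TATAAA began 31 bases before the gene start given in the deposited table. Searched on both strands, TATAAA was found in 13.6% of the 32851 promoters of the table, and on the gene's own strand in 8.32%. A 9-letter core of the Dux binding motif, GATTNAATC, was found in 0.268% of promoters and in none of the 300-base promoters of Zscan4c, Zscan4d, Zscan4f and Zfp352, which says only that these letters are not in this window. Matches of the 2 motifs cannot overlap.

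The Zfp352 promoter is of another kind. It is shown from chr4:90218600-90218799 (plus strand, GRCm38.p6) because it consists largely of a tandem repeat. A part of the longer repeat unit, GACAACACA, is in capitals. This part was chosen after the sequence had been viewed.
Zfp352: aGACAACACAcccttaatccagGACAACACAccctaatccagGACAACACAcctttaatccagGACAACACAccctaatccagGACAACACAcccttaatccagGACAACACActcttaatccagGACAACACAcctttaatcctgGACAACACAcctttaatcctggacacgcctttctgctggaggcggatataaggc

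The stretch holds 8 copies of GACAACACA and the whole 300-base promoter 9. Of all 32851 promoters, 1 had 3 or more copies. Tcstv1 and Tcstv3, a pair of short genes on chromosome 13 with reading frames of 513 and 507 bases, were 94.5% identical over the frame.

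These sequences set how well each gene can be counted. Over windows of 50 bases, the read length of the study, 15.4% of the exon positions of Zscan4c were unique in the genome, 48.7% of Zscan4d, 2.92% of Zscan4f, 58.9% of Tcstv1, 65.5% of Tcstv3 and 91.0% of Zfp352. These shares use a later annotation release than the counts did, in which Zscan4f ends at 11402318 and not at the deposited 11402741. The 2.92% is therefore that of a shorter Zscan4f model. Paired reads have 2 such windows, so the share of fragments that can be placed is higher. Zscan4-ps1, Zscan4-ps2 and Zscan4-ps3, further near copies in the reference cluster, had no row in the table used here. The split of reads among the Zscan4 genes is therefore uncertain, and among the Tcstv genes to a lesser degree, and sums over each family are given beside the single genes.

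The ESC libraries held 63617410 (Htt-null) and 87924678 (wild type) counts, and the RA-DIFF libraries 100927951 (labelled Htt-null) and 110569127 (labelled wild type). The latter are called null-labelled and WT-labelled from here on. Levels are given in CPM, the count of a gene relative to its library total, with totals scaled by the trimmed mean of M values (TMM), with exact 95% intervals that cover counting error only. With 1 library per condition there is no replicate check, so values are compared by size and counting interval, and no p-value is given. An exact test with an assumed dispersion was run as an alternative for the number of calls only. A gene was called when the log2 ratio passed 0.75 in size and the mean log2 CPM over the 4 libraries was above 0. A low gene can pass that mean through the library or stage in which it is high, so counts of calls, among members and lists alike, are descriptions and nothing is read from them alone. Htt itself was at 111 CPM in Htt-null and 166 CPM in wild-type ESC, but in RA-DIFF it was at 98.7 CPM in the null-labelled and 73.3 CPM in the WT-labelled library. The counts of Htt cover the whole gene and not the deleted exons alone, so they are only a partial check. In RA-DIFF they go against the labels, and every RA-DIFF direction below is given by label and turns round, between genotypes, if the labels are exchanged.

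The cells labelled ESC carried their defining markers, which were lower in the differentiated cells. Of the 12 pluripotency genes, all were called lower in RA-DIFF than in ESC, with a median log2 ratio of -6.31 in cells labelled wild type and -8.97 in cells labelled Htt-null, where 26.2% and 24.9% of all genes were called lower. Between the RA-DIFF libraries these genes also differed, with 9 of the 12 called lower in the null-labelled library (median -2.75), where 9.19% of all genes were called lower and 11.9% higher. Tbx3 was called higher there, with 1041 reads against 287. Pou5f1 had 123 reads in the null-labelled and 1324 in the WT-labelled library. All 8 neural and all 10 fibroblast markers were detected in RA-DIFF.

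The Zscan4 genes were several fold higher in Htt-null than in wild-type ESC. Zscan4f, Zscan4c and Zscan4d were the 3 of the 6 genes that were called higher, as were 5.20% of all genes tested. Tcstv3 moved in the same direction at a level under the expression limit, Zfp352 was 1.55-fold higher and the interval of Tcstv1 included no change. The summed reads of all 6 genes were 2.87-fold higher in Htt-null ESC (95% counting interval 2.69 to 3.06), at 44.0 CPM against 15.3 CPM.

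**Figure D1:**
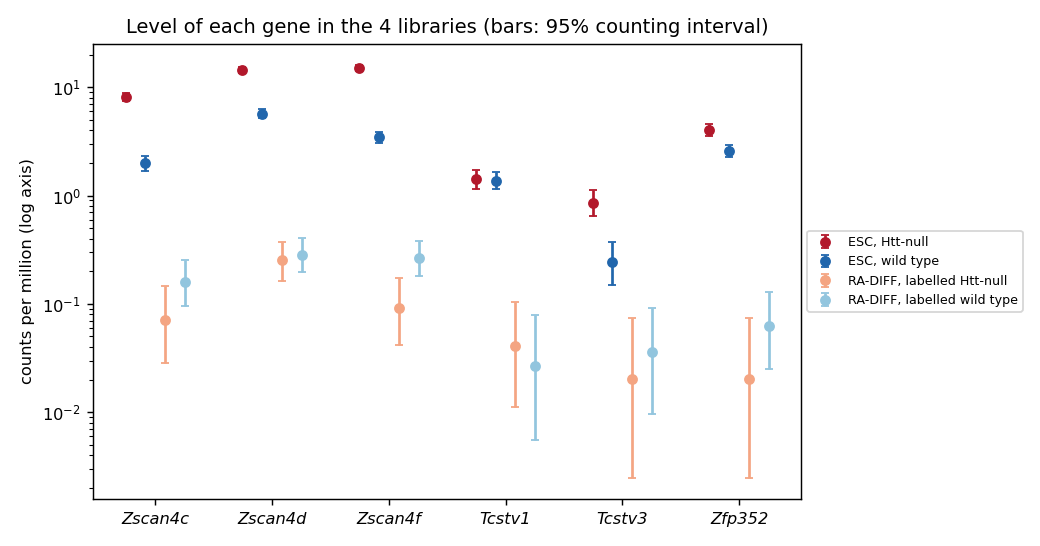
Level in CPM (log axis) of the 6 genes in the 4 libraries, as points with exact 95% counting intervals. The RA-DIFF points lie below both ESC points for every gene, and the ESC intervals are apart for Zscan4c, Zscan4d, Zscan4f, Tcstv3 and Zfp352 but overlap for Tcstv1.

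Zscan4f (ENSMUSG00000070828, chromosome 7, 11397915 to 11402741, plus strand, GRCm38) had 989 reads in Htt-null and 299 in wild-type ESC, and 9 and 30 in the null-labelled and WT-labelled RA-DIFF libraries. Its level was 15.2 CPM (14.2 to 16.1) in Htt-null and 3.45 CPM (3.07 to 3.86) in wild-type ESC, a log2 ratio of 2.14 (1.95 to 2.33). It was the member with the largest ratio in ESC. In the later annotation, whose Zscan4f model is shorter than the deposited one, it also had the smallest unique part of its exons.

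Zscan4c (ENSMUSG00000054272, chromosome 7, 11005722 to 11010547, plus strand) had 527, 172, 7 and 18 reads in the same order. The Htt-null ESC level of 8.08 CPM (7.40 to 8.80) stood above the wild-type level of 1.98 CPM (1.70 to 2.30) by a log2 ratio of 2.03 (1.78 to 2.28). Its interval overlaps that of Zscan4f, so the order of these near-identical copies by ratio is not resolved by the counts.

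Zscan4d (ENSMUSG00000090714, chromosome 7, 11161374 to 11166182, minus strand) had 944, 495, 25 and 32 reads. It was at 14.5 CPM (13.6 to 15.4) in Htt-null and 5.71 CPM (5.22 to 6.23) in wild-type ESC. The log2 ratio of 1.34 (1.18 to 1.5) lay below those of Zscan4c and Zscan4f, with no overlap of the intervals.

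As counted, the Zscan4 genes thus did not move by the same factor. The intervals cover counting error only, and the split of reads among these near copies is uncertain. Among the reads of the 3 genes, Zscan4d took 51.2% (48.0 to 54.4, exact binomial) in wild-type ESC and 38.4% (36.4 to 40.3) in Htt-null ESC. The share of Zscan4f went the other way, from 31.0% (28.0 to 34.0) in wild-type to 40.2% (38.3 to 42.2) in Htt-null ESC. Zscan4c changed least, from 17.8% (15.4 to 20.4) to 21.4% (19.8 to 23.1), with overlapping intervals. In RA-DIFF the shares rested on 41 and 80 reads and were not resolved, with 61.0% (44.5 to 75.8) for Zscan4d in the null-labelled and 40.0% (29.2 to 51.6) in the WT-labelled library.

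**Figure D2:**
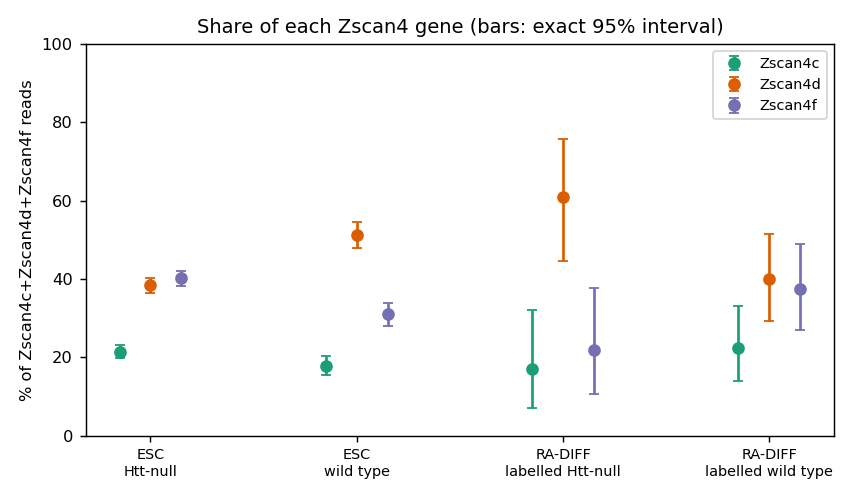
Percent of the summed Zscan4c, Zscan4d and Zscan4f reads taken by each gene in each library, with exact 95% binomial intervals. Zscan4d leads in wild-type ESC at 51.2%, while Zscan4d and Zscan4f are close in Htt-null ESC at 38.4% and 40.2%, and the RA-DIFF intervals are wide.

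Summed over the 3 members, which does not depend on how reads were split among them, Zscan4 was at 37.7 CPM in Htt-null and 11.1 CPM in wild-type ESC, a 3.39-fold difference (3.14 to 3.65). With Zscan4b and Zscan4e added, the log2 ratio of all 5 Zscan4 genes of the table was 1.65 (1.55 to 1.75). The 12 other genes named Zscan had log2 ratios from -0.44 to 0.24 with a median of -0.03. Of all 17 genes named Zscan, 15 passed the expression limit and 4 were called higher, all of them Zscan4 genes (5.20% of all genes), and the median over the 17 was 0.07. Zscan10, a SCAN gene of the pluripotency network that sits far above Zscan4 in level with 5964 and 7683 reads, had a log2 ratio of 0.05.

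Tcstv1 (ENSMUSG00000096284, chromosome 13, 119893388 to 119894785, minus strand) had 92 reads in Htt-null and 119 in wild-type ESC, and 4 and 3 in the null-labelled and WT-labelled RA-DIFF libraries. The level was 1.41 CPM (1.14 to 1.73) against 1.37 CPM (1.14 to 1.64) in ESC, a log2 ratio of 0.04 (-0.37 to 0.44). A difference above 1.36-fold in favour of Htt-null ESC lies outside the counting interval.

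Tcstv3 (ENSMUSG00000095821, chromosome 13, 120317567 to 120318076, plus strand) had 56, 21, 2 and 4 reads. It was the least abundant of the 6 genes in ESC, at 0.858 CPM (0.648 to 1.11) in Htt-null and 0.242 CPM (0.150 to 0.370) in wild-type ESC. The log2 ratio of 1.83 (1.08 to 2.62) did not overlap that of Tcstv1, although the pair is 94.5% identical in coding sequence. With Gm20767, AF067061 and BC147527, close relatives in the same cluster (88.6% to 95.3% identical to Tcstv1), the 5 Tcstv-like genes together were 1.51-fold higher in Htt-null ESC (1.3 to 1.74).

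Zfp352 (ENSMUSG00000070902, chromosome 4, 90218820 to 90225702, plus strand) had 263, 225, 2 and 7 reads. Its sequence is mostly unique, so sharing of reads bears on it least. It was at 4.03 CPM (3.56 to 4.55) in Htt-null and 2.59 CPM (2.27 to 2.96) in wild-type ESC, and the log2 ratio of 0.64 (0.37 to 0.90) was above 0 but under the limit of 0.75, which the interval includes. Zfp352 was not called.

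Per kilobase of annotated exon, the 6 genes ranked in Htt-null ESC as Zscan4f (7.74 CPM per kb), Zscan4d (6.37), Zscan4c (3.55), Zfp352 (1.77), Tcstv3 (1.10) and Tcstv1 (1.01). In wild-type ESC the order was Zscan4d (2.51 CPM per kb), Zscan4f (1.76), Zfp352 (1.14), Tcstv1 (0.982), Zscan4c (0.871) and Tcstv3 (0.311). With the lengths taken as given, the counting intervals of Tcstv3 and Tcstv1 overlapped in Htt-null ESC. Those of Zfp352, Tcstv1 and Zscan4c overlapped in wild-type ESC, and the other neighbours in these orders were apart. The lengths came from a later annotation release than the one used for counting. There Zscan4f ends at 11402318 and not at 11402741, and Tcstv3 spans 120316878 to 120318178 and not 120317567 to 120318076. The places of Zscan4f and Tcstv3 in these orders are therefore not settled. Reads lost to other copies lower the Zscan4 values by an unknown amount. The Zscan4 genes took 85.7% of the reads of the 6 genes in Htt-null ESC (84.3 to 86.9) and 72.6% in wild-type ESC (70.1 to 75). The share of Zfp352 was 9.16% (8.13 to 10.3) in Htt-null and 16.9% (14.9 to 19.0) in wild-type ESC. By these counts the make-up of the group, as well as its level, differed between the ESC libraries. The intervals cover counting error only, and genotype, line and culture cannot be told apart.

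Against the whole table, 3 of the 4 members that passed the expression limit were called higher in Htt-null ESC, where 5.20% of 15313 genes were called higher and 3.55% lower. Without that limit, among genes with at least 10 reads in the pair, 4 of the 6 passed the fold limit upwards, with 12.9% of 22513 genes doing so. The median log2 ratio was 1.58 over the 6 genes and -0.04 over all genes tested, and 95% of genes lay below 0.76. The median gene of chromosome 7 was at -0.07, of chromosome 13 at -0.11 and of chromosome 4 at -0.09.

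**Figure D3:**
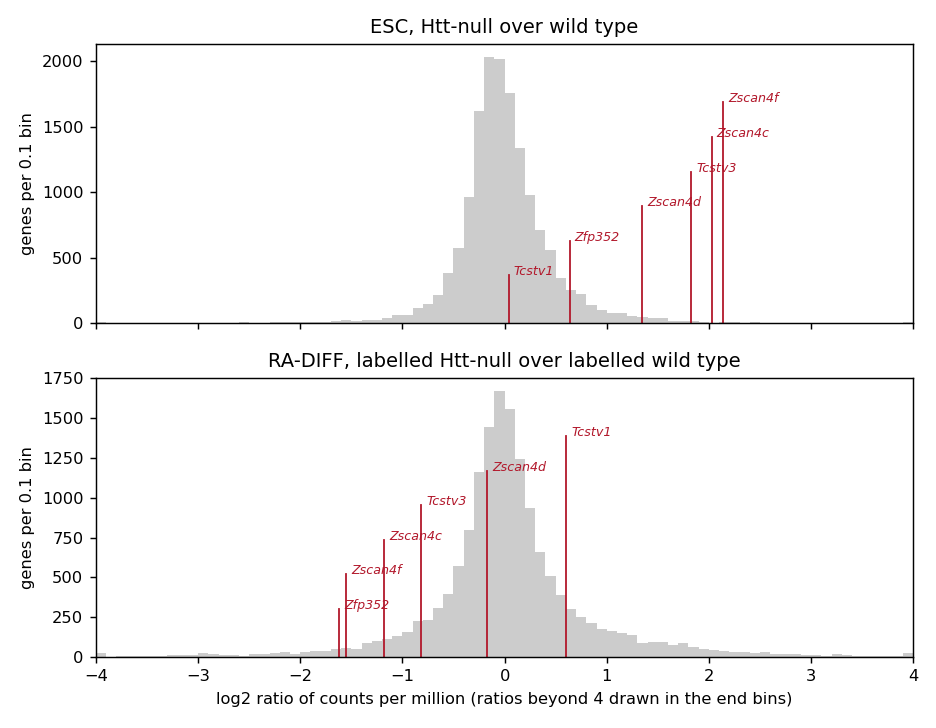
Number of genes per 0.1-wide bin of the log2 ratio between genotypes in ESC (top) and, by label, in RA-DIFF (bottom), with the 6 genes drawn as red lines whose height has no meaning. In ESC all 6 lie at or above 0.04 and 4 lie above 1.3, while in RA-DIFF 5 of the 6 lie below 0.

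The other listed transcripts of the 2-cell-like state were higher in Htt-null ESC with few exceptions. Of 38 listed, 30 were in the table and 15 passed the expression limit, of which 13 were called higher and 0 lower by the same rule of size (5.20% and 3.55% of all genes). Some of the 13, such as Gm4027 and Gm2016, passed the limit through their Htt-null ESC level. Counting, without that limit, those with at least 10 reads in an ESC library, 24 of 27 had a counting interval above 0, 3 had an interval that included 0 and 0 had one below it. Of all 21328 genes with that many reads, 27.9% had an interval above 0 and 32.2% one below. The median over these 27 was 1.17 and the range -0.21 to 3.50. The list and the members were assembled from knowledge of the same state, several of the genes are near copies that share reads, and all are compared in the same pair of libraries, so these counts are not independent of each other.

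Tmem92, a transmembrane protein gene and the most abundant of the list, had 2644 reads in Htt-null and 1562 in wild-type ESC, a log2 ratio of 1.17 (1.08 to 1.26). Among the ubiquitin-specific proteases of the Usp17l family, Usp17lb had 416 and 146 reads with a ratio of 1.92 (1.65 to 2.20) and Usp17le 547 and 274 with 1.41 (1.20 to 1.62). Usp17lc, at 325 and 299 reads and a log2 ratio of 0.53, was not called. Pramel6, of a family expressed in early embryos and germ cells, had 102 and 12 reads, a ratio of 3.50 (2.63 to 4.50). Gm5662 (293 and 97 reads, 2.01) and Gm4027 (254 and 90 reads, 1.91) had ratios near that of Zscan4c. Sp110, a nuclear body protein, reached 0.72 with 445 and 360 reads. B020031M17Rik, inside the Tcstv cluster, was the exception in direction, with 24 and 37 reads and a log2 ratio of -0.21 (-1.02 to 0.57).

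**Figure D4:**
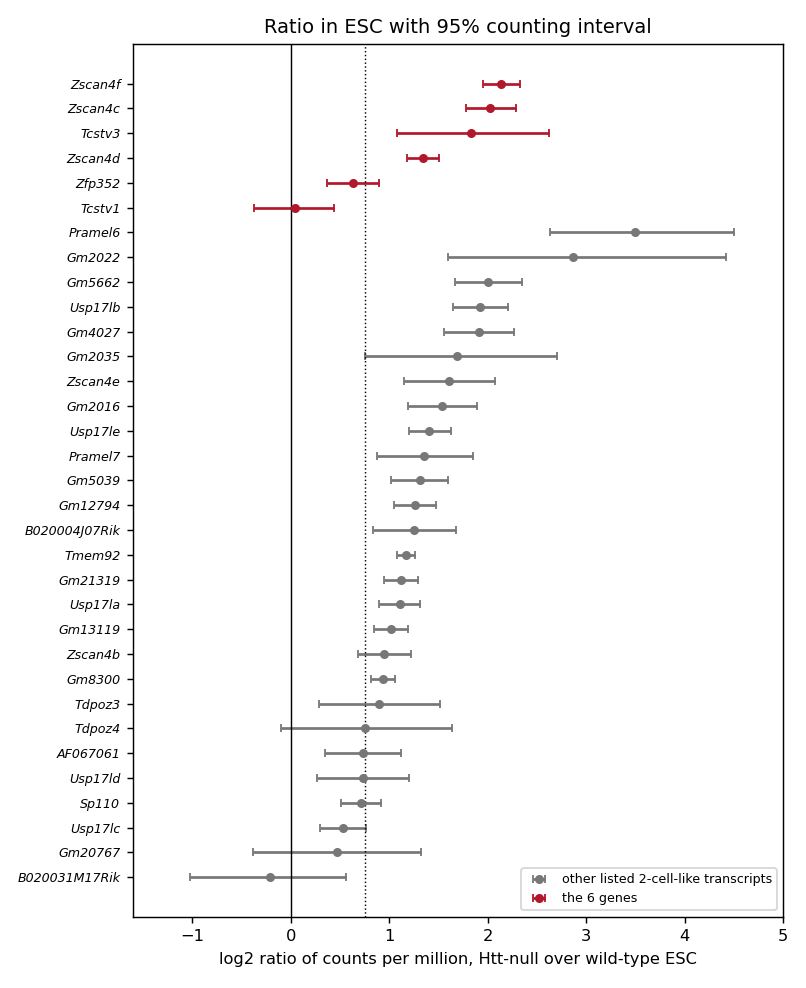
Log2 ratio between Htt-null and wild-type ESC with 95% counting intervals for the 6 genes (red) and the 27 other listed 2-cell-like transcripts with at least 10 reads in an ESC library (grey), with a solid line at 0 and a dotted line at the limit of 0.75. Apart from Tcstv1 and from Tdpoz4, Gm20767 and B020031M17Rik in the list, the intervals lie above 0.

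Within the chromosome 7 cluster all 5 Zscan4 genes of the table were higher in Htt-null ESC. Zscan4b had 288 and 198 reads (log2 ratio 0.95, 0.69 to 1.22) and Zscan4e 133 and 58 (1.61, 1.15 to 2.08). The 3 annotated neighbours on either side, Vmn1r-ps50, Gm6900, Nlrp4b, Gm10179, Vmn1r-ps63 and Vmn1r-ps66, had at most 14 reads in an ESC library, and of the 5 with more than 3 reads 2 had a ratio above 0. In the Tcstv cluster, 7 of the 9 genes with more than 3 reads were above 0. Of its annotated neighbours in the table, D13Ertd608e had 31 and 15 reads, a log2 ratio of 1.46 (0.53 to 2.45), and Gm21358 had 4 and 3. Gm21761 was the most abundant there with 398 and 214 reads and a ratio of 1.31 (1.06 to 1.55), and AF067061 (129 and 103 reads, 0.74) and BC147527 (91 and 80 reads, 0.60) lay between Tcstv1 and Tcstv3. On chromosome 4 the neighbours of Zfp352 had 25 reads or fewer in ESC, and Dmrta1 had 25 and 11 reads there and 251 and 417 in the null-labelled and WT-labelled RA-DIFF libraries.

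Genes listed as activators of the state gave a mixed picture. Duxf3, the table's entry for the Dux locus, had 54 reads in Htt-null and 22 in wild-type ESC, a log2 ratio of 1.71 (0.97 to 2.49), and fell under the expression limit. Dppa3 (Stella), a maternal factor of early embryos and germ cells, had 551 and 91 reads and the largest ratio of the list, 3.01 (2.69 to 3.35). Dppa2 (5833 and 7959 reads, -0.04) and Dppa4 (5013 and 7363 reads, -0.14), which are known to act upstream of Dux, were near level, as was Zscan10. Of 9 listed activators in the table, 8 passed the expression limit, 1 was called higher and 0 lower (5.20% and 3.55% of all genes). The median over the 9 was 0.05. The list also holds Nelfa (0.29), Trp53 (0.26), Tet1 (-0.11) and Tet2 (-0.37), and the role of each gene in the state was not examined.

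Genes known to hold the state down had small ratios. All 21 repressors passed the expression limit and 0 were called in either direction, which is near the share of all genes called (5.20% higher and 3.55% lower), with log2 ratios from -0.40 to 0.22 and a median of -0.13. The corepressor Trim28 stood at -0.03, the histone methyltransferase Setdb1 at -0.02, the demethylase Kdm1a at -0.14 and the Chaf1a subunit of the histone chaperone CAF-1 at -0.07. Hdac2, a histone deacetylase, was the lowest at -0.40, and nucleolin (Ncl) the highest at 0.22. Telomere maintenance genes, to which Zscan4 is linked by its known role, included 13 that passed the limit and 0 that were called, again near that share, and the telomerase reverse transcriptase Tert had a ratio of -0.04.

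**Figure D5:**
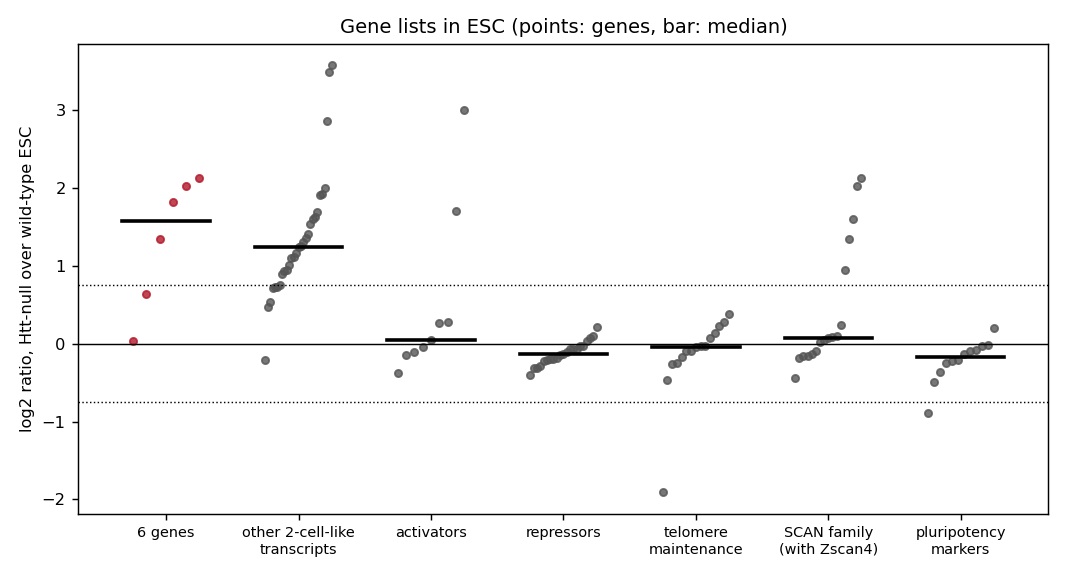
Log2 ratio between Htt-null and wild-type ESC for each gene (points) of the 6 genes and of 6 gene lists, with the median as a bar and dotted lines at the limits of 0.75 and -0.75. The medians of the 6 genes and of the other 2-cell-like transcripts lie above the upper limit at 1.58 and 1.25, and those of the activators, repressors, telomere genes, SCAN family and pluripotency markers lie between -0.17 and 0.07.

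Markers of other cells moved as well between the ESC libraries, in which 5.20% of all genes were called higher and 3.55% lower. Of 9 fibroblast markers with more than 3 reads, 5 were called lower in Htt-null ESC (median -0.83), with a summed level of 77.4 CPM in Htt-null and 97.4 CPM in wild-type ESC, Lum at or near 0 in both libraries and Dcn at 0 in Htt-null ESC. Dcn (0 and 10 reads) and Postn (27 and 66) were among the called ones and passed the expression limit through their RA-DIFF level. Among 8 neural markers 4 were called higher in Htt-null ESC (median 0.47), at a summed 336 CPM against 292 CPM. For Dcx, which passed the limit through RA-DIFF, this rested on 8 and 5 reads. Primitive endoderm markers summed to 13.1 CPM and 17 CPM with 1 of 5 called lower, and trophoblast markers to 51.8 CPM and 47.1 CPM with 0 of 3 called. Pluripotency markers were 11 of 12 below 0 in Htt-null ESC, with a median of -0.17, and Dppa5a was called lower at -0.89. The part of these differences in the result for the 6 genes was not tested.

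After retinoic acid differentiation the 6 genes were almost silent. Their summed level was 0.498 CPM in the null-labelled and 0.839 CPM in the WT-labelled library, and no member had more than 32 reads in a library. By label the sum was 18.3-fold lower in RA-DIFF than in ESC for wild type (14.8 to 22.8) and 88.5-fold lower for Htt-null (66.7 to 120). The log2 ratios ran from -5.68 for Tcstv1 to -2.76 for Tcstv3 in cells labelled wild type and from -7.63 for Zfp352 to -5.12 for Tcstv1 in cells labelled Htt-null.

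All 6 intervals lay below 0 in both comparisons, as did those of 37.7% of all genes with more than 3 reads in a library of the pair in cells labelled wild type and 38.3% in cells labelled Htt-null. The 4 members that passed the expression limit were called lower in both. They passed that limit through their ESC level, so the count carries no support of its own. Called lower were 26.2% of all genes in cells labelled wild type and 24.9% in cells labelled Htt-null, with 34.0% and 34.4% called higher, and 5% of genes fell below -3.99 and -3.91. The other listed 2-cell-like transcripts had median log2 ratios of -5.28 and -6.82 over the 15 that passed the limit, all of them called lower in both. Their RA-DIFF levels were at most 64 reads, so they too passed the limit through ESC and the count carries no support. These comparisons share no library, but each pairs an ESC with an RA-DIFF library by label, and exchanging the RA-DIFF labels moves the sum to log2 ratios of -4.95 and -5.71.

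Between the RA-DIFF libraries the sum of the 6 genes went the other way from ESC by label, with 5 of the 6 below 0 and Tcstv1 above it. The sum was 49 reads in the null-labelled and 94 in the WT-labelled library, a log2 ratio of -0.75 (-1.28 to -0.24). Zscan4f, with 9 and 30 reads, was the member whose own interval excluded 0, at -1.55 (-2.81 to -0.44). Zscan4c (-1.18) and Zfp352 (-1.62) also passed the fold limit, on 25 and 9 reads in all, with intervals that include 0. Zscan4d, with 25 and 32 reads, was at -0.17 (-0.99 to 0.63), and Tcstv1 (0.60) and Tcstv3 (-0.81) had at most 4 reads in either library.

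By the fold rule 3 of the 4 members that passed the limit were called lower, with 9.19% of 15442 genes called lower and 11.9% higher. They passed that limit through their ESC level and had at most 32 reads in RA-DIFF, so nothing is read from this count. It became 2 with at least 10 reads required in the pair, and 1 and 0 with edgeR's exact test at dispersions of 0.01 and 0.1.

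The other listed 2-cell-like transcripts had at most 64 reads in an RA-DIFF library, and 17 of the 20 with more than 3 reads had a counting interval that included 0. Of 13 that passed the limit and had more than 3 reads in a library, 3 were called higher and 4 lower in the null-labelled library (11.9% and 9.19% of all genes, which also stand beside the marker counts that follow). Of all 20 with more than 3 reads, 11 had a ratio above 0 and 9 below, with a median of 0.32, against -0.23 over the 13. The summed level of the list was 2.51 CPM in the null-labelled and 2.14 CPM in the WT-labelled library. The WT-labelled library, in which the sum of the 6 genes was higher, was also the one with more of 10 of the 12 pluripotency transcripts, Klf4 and Tbx3 being the exceptions, and it had more Dppa2 (138 against 24 reads), Dppa4 (170 against 22) and Dppa3 (72 against 8). The null-labelled library had the higher fibroblast markers, 8 of 10 called and a summed 1785 CPM against 653 CPM. Of 5 primitive endoderm markers 2 were called higher there, Sox7 and Pdgfra, and Pdgfra is also among the fibroblast markers. Of the others that passed, Gata6 (0.25) and Sox17 (0.50) were above 0 and Gata4 (-0.12) below. Most neural markers moved in the direction of the 6 genes, with 6 of 8 called lower in the null-labelled library and a summed 2110 CPM against 3280 CPM. Nes was the exception, at 833 CPM in the null-labelled and 578 CPM in the WT-labelled library. All 3 trophoblast markers that passed the limit were also called lower in the null-labelled library (10.7 CPM against 31.4 CPM). The part of undifferentiated or other cells in the RA-DIFF difference was not tested.

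The genes whose pattern over the 4 libraries was most like that of the summed members were found by the smallest Euclidean distance between centred log2 CPM, among 16681 genes with at least 100 reads in their highest library. The nearest 10, at distances of 0.30 to 0.47 against a median of 5.62, were Gm5039, Adgrg5, Gm12794, Gm2016, Cyp2c44, Crxos, Gm38258, Gm8994, Atp2c2 and Adad2. Gm5039, Gm12794 and Gm2016 are on the list of 2-cell-like transcripts, which has 20 genes among the 16681 and 10 among the nearest 100. Gm5039 had 289 and 155 reads in Htt-null and wild-type ESC and 3 and 6 in the null-labelled and WT-labelled RA-DIFF libraries. Adgrg5, an adhesion G protein-coupled receptor gene, had 489, 286, 9 and 19 reads in that order, and Crxos, a homeobox gene, 513, 292, 7 and 22. In the 10 genes the ESC log2 ratio ranged from 0.86 for Adad2 to 1.54 for Gm2016. Ratios near that of the summed members follow from the way these genes were selected. The distance rests on 4 libraries and on low counts in 2 of them.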

How the data were processed

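RNA-seq of 4 mouse samples was used, 1 library per condition. The remaining 4 samples of the series are small RNA libraries, whose table holds miRNAs and was not used here. The deposited values are counts of reads per gene. Per the study's methods and the submitters' processing notes, the authors sequenced strand-specific poly(A) libraries as 50-base paired reads, aligned them with TopHat2 2.0.14 to GRCm38.p4 with GENCODE M6, and counted with HTSeq 0.6.1 in intersection-nonempty mode, which by default does not count reads that map to several places. Reads that fit several near-identical copies equally would then be left out.

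From the deposited counts, CPM with TMM scaling and the mean log2 CPM were computed with edgeR 4.0.16 in R 4.3.3, and exact Poisson, binomial and conditional ratio intervals (95%) with scipy 1.17.1. A count of 0 was set to 3, and a ratio was left out where both counts were 3 or fewer. The call rule was tested on simulated counts. Named genes were the 6 members, Htt, the listed genes with at least 10 counts in a library, the annotated neighbours (3 on either side) and the 10 genes of most similar pattern. The members and lists were chosen with earlier results of these data known. Alternatives were library size and RLE scaling, other limits, a prior count, edgeR's exact test at a fixed dispersion, leaving out each member, and exchanged RA-DIFF labels. Sequence was read from the GRCm38 reference with the GENCODE vM21 annotation and from RefSeq promoters. Of the 6 members 4 matched the promoter table.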

Additional observations from a re-analysis of the deposited data

Results flagged for a closer look

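The genotype difference of the summed 6 genes had opposite directions at the 2 stages, while Tcstv1 had ratios of 0.04 and 0.60. For the summed reads the log2 ratio, Htt-null against wild type, was 1.52 among ESC and -0.75 by label among RA-DIFF cells, and for Zscan4f alone it was 2.14 and -1.55, each with a counting interval that excludes 0. The difference between the stages was not tested, since each condition has 1 library. The RA-DIFF direction depends on labels that Htt counts go against: with the RA-DIFF labels exchanged, the RA-DIFF ratios are 0.75 for the sum and 1.55 for Zscan4f, in the same direction as in ESC. Of the other listed 2-cell-like transcripts, 20 had more than 3 reads in an RA-DIFF library, of which 11 were above 0 by label (median 0.32), and 17 had a counting interval that included 0. The RA-DIFF values of the 6 genes rest on 49 and 94 reads in all, and the library with more of these reads had 9 of the 12 pluripotency markers past the fold limit in the same direction, with Tbx3 past it in the other (287 against 1041 reads).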

How the results depend on the processing

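With 1 library per condition no library could be left out, and no paired analysis was run, as each condition holds a single sample. In ESC 3 or 4 members were called higher under each of the 8 alternatives, and the summed log2 ratio of 1.52 became 1.62 without Zscan4d, 1.28 without Zscan4f and 1.65 without Zfp352. In RA-DIFF the 3 members called lower by label became 0 under edgeR's exact test at a dispersion of 0.1 and 1 at 0.01, and the summed log2 ratio of -0.75 ran from -1.18 without Zscan4d to -0.49 without Zscan4f, which is under the fold limit in size. With the RA-DIFF labels exchanged the 3 were higher instead, the sum was at 0.75, and Zscan4c, Zscan4f and Zfp352 were at 1.18, 1.55 and 1.62. For RA-DIFF against ESC, exchanged labels gave a summed log2 ratio of -4.95 in wild type and -5.71 in Htt-null, and leaving out Zscan4d gave -6.92 in Htt-null. Library size and RLE scaling moved no ratio by over 1.5 times. A prior count of 2 kept every ratio within its counting interval but moved 5 low-count ones by more: Zfp352 to -0.996 between the RA-DIFF libraries, and for RA-DIFF against ESC Tcstv1 to -4.84 in wild type and -4.51 in Htt-null, Tcstv3 to -4.38 and Zfp352 to -6.58 in Htt-null. Low counts limit the RA-DIFF values and read sharing limits the split among copies.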
